A study of Mus musculus with 5 samples.

Results

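In gliomas induced with PDGFB in the mouse brain, 14227 regions of chromosomes 1 to 19 carried a peak of acetylated lysine 27 of histone H3 (H3K27ac) in Olig2cKO tumours and no peak in any other deposited list. They are called gained distal regions here. All peaks of the 4 histone lists that overlapped or touched were merged into 89204 regions, and a region was kept when Olig2cKO H3K27ac peaks alone made it up and when no Olig2 peak overlapped it. The kept regions were 15.9% of all merged regions. Gained means that no control peak was listed at the site, not that control tumours lacked the mark there, since a control signal under the lowest listed score of 50.02 is not in the list.

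The data were 5 chromatin immunoprecipitation sequencing (ChIP-seq) libraries from brain tumours collected 25 days after virus injection, in mice of a mixed C57Bl/6;129Sv;CD-1 background. Olig2cKO tumours carried floxed Olig2 alleles (Olig2f/f), which control tumours did not, and both genotypes carried floxed P53 alleles (P53f/f). H3K27ac and trimethylated lysine 4 of histone H3 (H3K4me3) were mapped in both genotypes, and Olig2 is available here for control tumours. Each group had 1 library, and whether it came from 1 tumour or a pool is not given in the labels. The labels do not say how the floxed alleles were recombined, and these lists hold no measure of Olig2 in Olig2cKO tumours. No difference between genotypes therefore has a replicate check, no test was made, and all values are descriptions of these libraries. The numbers of reads behind the lists are not given in the sources used here.

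H3K27ac is laid down by the acetyltransferases CBP and p300 at active promoters and enhancers, and H3K4me3 sits mainly at promoters. Acetylated sites away from H3K4me3 are therefore commonly read as candidate enhancers, the elements that differ most between cell types. Olig2 is a basic helix-loop-helix transcription factor of the oligodendrocyte lineage that binds E-box motifs and is expressed in many gliomas. Gene positions on mm9, the build of the lists, were not used here, so regions are given by position, none is assigned to a gene, and the labelled tissue was not checked against marker genes.

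The word distal rests on the absence of an H3K4me3 peak in the region. The nearest H3K4me3 peak of the same genotype lay at a median of 16 kb (95% interval 15.7 to 16.4) from a gained distal region. The nearest control H3K4me3 peak lay at 19.4 kb (18.98 to 19.9). Only 425 gained regions (2.99%, exact interval 2.71 to 3.28) had an Olig2cKO H3K4me3 peak within 1 kb, and 4922 (34.6%) had one within 10 kb. Most of these regions thus lay well apart from listed H3K4me3 as well as outside it. Intervals here and in the rest of the text are at 95%, cover counting error only, and treat neighbouring regions as independent, which they are not.

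Every gained region consisted of exactly 1 Olig2cKO H3K27ac peak. Together they covered 17.3 Mb, which was 14.4% of the bases under Olig2cKO H3K27ac peaks on these chromosomes, and they made up 20.9% of the 67928 peaks. Among distal Olig2cKO H3K27ac peaks, those with no Olig2cKO H3K4me3, they were 14227 of 34291 (41.5%, 40.97 to 42.0).

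Regions with H3K27ac in Olig2cKO tumours and none in control tumours made up 23.1% of all merged regions, and those with the reverse made up 10.7%. Among merged regions free of Olig2 the first share was 31.6%. Lost distal regions, which held a control H3K27ac peak alone and no Olig2, numbered 5915, so there were 2.41 gained regions for each lost one. This excess depended on the length of the lists. With each pair of histone lists reduced to equal length by score, 8322 regions were gained and 7839 were lost. Shared distal regions, with H3K27ac of both genotypes, no H3K4me3 and no Olig2, numbered 11549 and served as the main comparison.

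Gained regions were narrow and weak within their own list. The rule chose them from these same peaks, so score and width are descriptions of the choice. Their median width was 1019 bp (1005 to 1035), from 285 to 7783 bp, against 1763 bp (1746 to 1781) for shared distal regions and 1003 bp (984 to 1020) for lost ones. The median score, which the authors' peak caller gave to each peak, was 83.2 (82.1 to 84.0) for gained and 149.1 for shared regions in the Olig2cKO list. The lower 50% of that list by score held 12425 gained regions (87.3%, 86.8 to 87.9) and 6550 shared ones (56.7%, 55.8 to 57.6). In the plot of score distributions the gained regions pile up at the lower end.

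**Figure D1:**
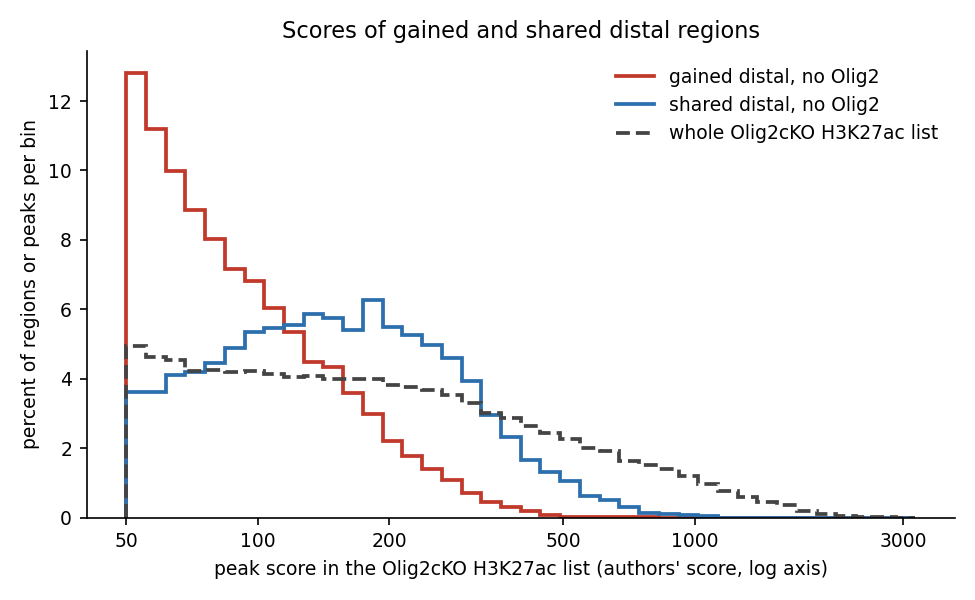
Peak scores in the Olig2cKO H3K27ac list (log axis) against the percent of regions or peaks in each bin, for gained distal regions, shared distal regions and the whole list. Gained regions have a median of 83.2 and shared regions one of 149.1, and the whole list has a median of 167.95.

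The decline with score was steep but did not reach 0. In the lowest 10% of the list by score, gained regions were 3553 of the 4431 gained and shared distal regions together (80.2%, 79.0 to 81.3). Between scores of 129.93 and 167.95 they were 1460 of 3114 (46.9%), and in the highest 10% of the list 8 of 106 (7.55%, 3.31 to 14.3). These shares follow from the rule and are given to show where the members stood.

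Strength and width ran together. Of all gained regions, 6346 (44.6%) were 500 to 1000 bp wide with a median score of 70.2, and 5706 (40.1%) were 1 to 2 kb wide with a median score of 110.1. At 2 to 4 kb there were 1412 regions, with a median score of 120.2. The 149 regions of 4 kb or more broke this order with a median of 100.3. All 5 of the widest regions were weak, with scores of 52.9 to 73.4. The widest lay on chromosome 2 from 160565335 to 160573117 (7783 bp, score 67.99), and the next on chromosome 2 from 158563889 to 158571390 (7502 bp, 73.43). In these 5 regions great width therefore did not go with a high score, unlike the order seen up to 4 kb.

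The edge of the rule was sharp in position and soft in kind. A gained region could lie as close as 2 bases to a control H3K27ac peak, and 133 lay at most 100 bases from one, at median values of 76.0 for score and 836 bp for width. Just outside the rule, 125 Olig2cKO peaks shared 1 to 100 bases with a control peak, at median values of 78.3 and 815 bp. At the Olig2 edge, 14 gained regions lay at most 100 bases from an Olig2 peak (median score 74.1), and 22 peaks that met the rest of the rule shared 1 to 100 bases with one (median score 71.5).

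Leaving out regions with Olig2 removed a small part. Of the 15555 regions made of Olig2cKO H3K27ac alone, 1328 (8.54%, 8.10 to 8.99) overlapped an Olig2 peak. The share was 5035 of 16584 (30.4%, 29.7 to 31.1) for distal regions acetylated in both genotypes and 1185 of 7100 (16.7%, 15.8 to 17.6) for those acetylated in control tumours alone. Olig2 was mapped in control tumours, where the gained sites had no listed acetylation, so these shares do not compare the classes on equal terms. Gained regions with Olig2 had a higher median score, 102.2 (98.5 to 107.0), than those without.

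The next values describe where the gained regions lay relative to chromatin that was already marked in control tumours. The nearest control H3K27ac peak was at a median of 11 kb (10.8 to 11.3), with the middle 50% of regions between 5.16 and 26.1 kb. Shared distal regions had their next control H3K27ac peak at 9.0 kb (8.76 to 9.17). Lost distal regions had their next control peak at 9.14 kb (8.84 to 9.41). At the median, gained regions stood somewhat farther from control acetylation than both other classes. At the near end the order against shared regions was the reverse. A control H3K27ac peak lay within 1 kb of 5.12% of gained (4.77 to 5.50), 4.02% of shared (3.67 to 4.39) and 6.20% of lost regions (5.60 to 6.85). The rule used the control H3K27ac list to form the classes, so these distances are descriptions of the choice. To the next Olig2cKO H3K27ac peak the medians were closer, at 7.65 kb for gained, 7.41 kb for shared and 8.03 kb for lost regions.

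Gained and shared regions also differed at 10 kb, 50 kb and 100 kb. A control H3K27ac peak lay within 10 kb of 6639 gained regions (46.7%, 45.8 to 47.5) and of 6285 shared ones (54.4%, 53.5 to 55.3). It was more than 50 kb away for 1881 gained (13.2%), 714 shared (6.18%) and 470 lost regions (7.95%). It was more than 100 kb away for 894 gained (6.28%), 251 shared (2.17%) and 181 lost regions (3.06%). Lost regions were as narrow as gained ones and about as weak in their own list, with a median score of 79.3. Their tail to control peaks was shorter, but control peaks are the own list of lost regions. Measured to their own Olig2cKO list, 6.04% of gained regions lay more than 50 kb from the next peak, below the 7.95% of lost ones. Measured to the other genotype, 6.97% of lost regions lay more than 50 kb from an Olig2cKO H3K27ac peak, against 13.2% of gained regions from a control one. The Olig2cKO list has more peaks (69365 against 56600), so neither comparison is on equal terms.

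Olig2 binding was also farther off. The nearest Olig2 peak lay at a median of 17.8 kb (17.4 to 18.3) from gained, 14.4 kb (14.1 to 14.8) from shared and 15.2 kb (14.7 to 15.8) from lost distal regions. It was within 1 kb of 262 gained regions (1.84%, 1.63 to 2.08), 202 shared regions (1.75%, 1.52 to 2.01) and 121 lost regions (2.05%, 1.70 to 2.44), and these 3 intervals overlap. It was more than 100 kb away for 9.82% of gained, 4.95% of shared and 6.02% of lost regions. Within 10 kb an Olig2 peak was found for 31.6% of gained (30.8 to 32.3), 36.7% of shared (35.8 to 37.6) and 36.1% of lost regions (34.9 to 37.4). The gained class thus stood apart at 10 kb and at long range. Within 1 kb it did not, and few regions of any class had an Olig2 peak there. The plot of distances shows the same for control H3K4me3, which was more than 100 kb away for 10.8% of gained and 5.65% of shared regions.

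**Figure D2:**
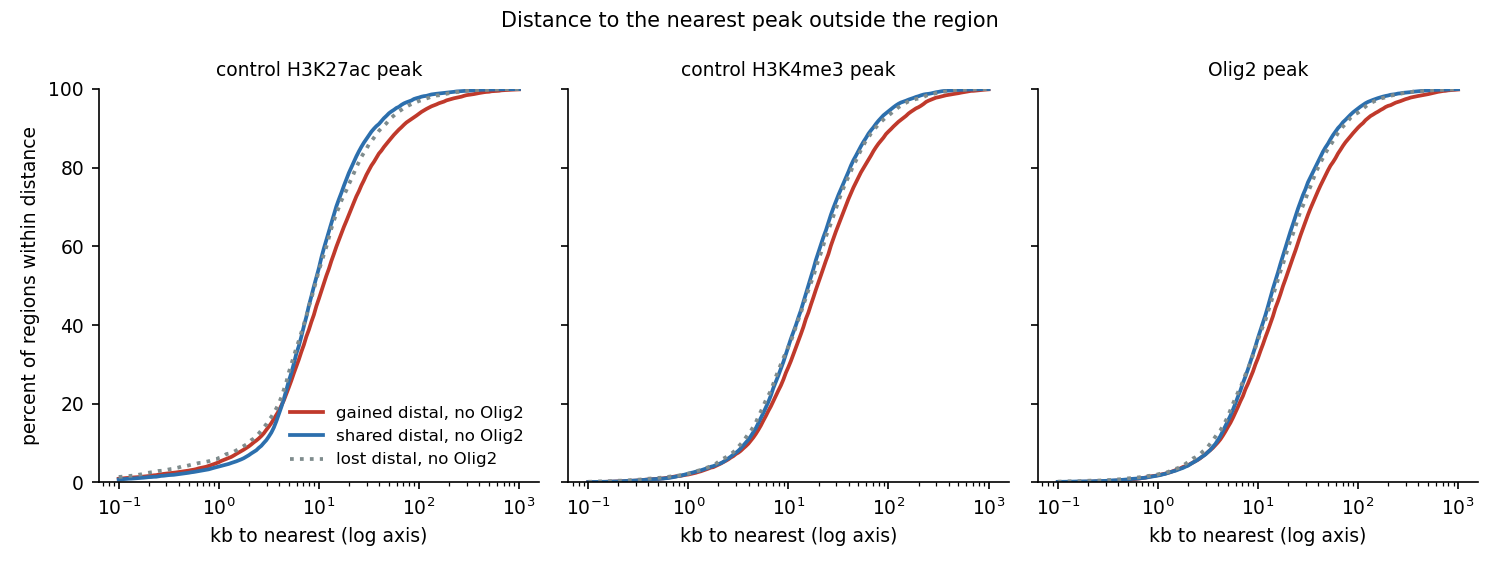
Percent of gained, shared and lost distal regions without Olig2 that have a control H3K27ac peak, a control H3K4me3 peak or an Olig2 peak outside the region within the distance on the x axis (kb, log axis). At 100 kb the gained curves are lowest in all 3 panels, with 93.7%, 89.2% and 90.2% of gained regions reached.

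Among the gained regions, strong ones lay farther from control acetylation and wide ones nearer to it. The median distance to a control H3K27ac peak was 10.1 kb for the 3009 gained regions with scores of 50 to 60, 12.52 kb for the 2702 with scores of 120 to 200, and 13.9 kb for the 1030 with scores of 200 to 400. For shared distal regions of the same score classes it was 8.23, 8.85 and 9.81 kb, so gained regions were farther in each of these classes. The median distance of gained regions fell with width, from 16.5 kb under 500 bp to 9.18 kb at 1 to 2 kb and 4.14 kb at 4 kb or more. The trends with score and with width thus ran in opposite directions, although wider regions had higher scores up to 4 kb.

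At scores of 400 or more stood 58 gained regions (0.408%), on 18 chromosomes. A control H3K27ac peak lay within 10 kb of 16 of them and beyond 50 kb from 17 (29.3%, 18.1 to 42.7). The share beyond 50 kb was 9.60% (7.49 to 12.1) of the 677 shared distal regions of that score. Shared regions hold a control H3K27ac peak by definition, so these shares are descriptions and the intervals are no test.

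The highest score of a gained region was 1087.22, on chromosome 16 from 46974079 to 46975815 (1737 bp), above all but 2.99% of the list. It lay 204.75 kb from the nearest control H3K27ac peak, 474.8 kb from control H3K4me3 and 205.1 kb from Olig2, and its nearest neighbour was another gained region 6.24 kb away. The next, on chromosome 17 from 91849510 to 91853054 (3545 bp, score 1054.28), was also remote, with control H3K27ac at 109.1 kb and a gained region at 19.3 kb. These strongest members were the most isolated from control marks among the highest 10.

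The other 8 varied in their distance to existing marks, from 1.22 to 68.5 kb for control H3K27ac. On chromosome 17 from 34360993 to 34362215 (score 891.83), control H3K27ac, Olig2cKO H3K4me3 and Olig2 peaks lay 4.61 to 4.67 kb away. On chromosome 1 from 158710487 to 158712297 (score 712.96), a control H3K4me3 peak ended 32 bases away while Olig2cKO H3K4me3 was 25.1 kb off. On chromosome 17 from 15965630 to 15967675 (score 771.32), control H3K4me3 lay 916 bases and control H3K27ac 1215 bases away, with Olig2cKO H3K4me3 at 18.6 kb. In the last 2 regions the flanking H3K4me3 peak was thus one listed in control tumours, with none of Olig2cKO tumours nearby. On chromosome 9 from 110868030 to 110871034 (score 659.35), the nearest region was one that held both marks in Olig2cKO tumours alone, 2.22 kb away. The other 4 of the highest 10 lay on chromosomes 4 (from 138579468 and from 140052409), 10 (from 29686915) and 8 (from 125982820), with scores of 617.44 to 807.56. Of these, the one on chromosome 10 lay 68.5 kb from control H3K27ac and 45.2 kb from Olig2, and the other 3 lay 12.2, 2.07 and 14.7 kb from control H3K27ac in the order given.

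Of the 5 members farthest from control acetylation, most had scores near or below the median of gained regions. Over all gained regions the share beyond 50 kb was larger at high scores, 17.7% at 200 to 400 against 11.7% at 50 to 60. The farthest, on chromosome 5 from 60059904 to 60060585 (682 bp, score 87.43), had no control H3K27ac peak within 1538.74 kb. The other 4 of the farthest 5 lay at 1259 to 1309 kb, on chromosomes 15 (from 16420703 and from 16470184), 6 (from 74561513) and 1 (from 143709425). Only the one on chromosome 1 had a score above 100, at 212.52, and its nearest neighbour was a gained region 27.6 kb away.

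Each class had a neighbour of its own kind more often than its share of all regions. The nearest merged region was another gained region for 3675 of them (25.8%, 25.1 to 26.6), while gained regions made up 15.9% of all regions. For shared distal regions the nearest was a gained one in 2226 cases (19.3%, 18.6 to 20.0), and for lost regions in 1038 cases (17.5%, 16.6 to 18.5). Shared regions had a shared one nearest in 16.6% of cases, at 12.9% of all regions, and lost regions had a lost one in 9.79%, at 6.63% of all regions. Regions with peaks in all 4 histone lists, mostly promoters by their H3K4me3, were nearest to 19.5% of gained and 23.1% of shared regions, below their 26.0% of all regions. Some of these pairs were separated by short gaps. Of the 2175 gained regions with another region within 1 kb, 1070 (49.2%) had a gained region there, and with peaks up to 1 kb apart joined the share with a gained neighbour was 21.2%, while gained regions were then 15.6% of all regions.

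Chaining gained regions at most 12500 bases apart left 10380 alone, while 3847 (27.04%, 26.3 to 27.8) stood in groups of 2 or more and 857 (6.02%, 5.64 to 6.43) in 266 clusters of 3 or more. The same chaining put 4.79% of shared (4.41 to 5.19) and 1.44% of lost distal regions (1.15 to 1.77) in clusters of 3 or more. Sparser classes form fewer clusters under a fixed distance, so these shares follow class size as well as grouping.

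The clusters of 6, and the longest of those of 5, show stretches with several gained peaks and little else. On chromosome 6 from 18571300 to 18614945 (43.6 kb) stood 6 gained regions with scores of 92.59, 171.23, 100.44, 91.66, 53.19 and 92.53 in order of position. No other peak of any list lay inside, and control H3K27ac was 18.2 kb and Olig2 16.7 kb from its edges. All 6 were narrow, at 757 to 1561 bp. On chromosome 9 from 103029380 to 103071786 (42.4 kb), 6 gained regions with scores of 59.39 to 224.34 flanked 1 site with peaks in all 5 lists, 3 on each side.

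There were 6 clusters of 5 gained regions, and the longest 3 of them are described here. On chromosome 3 from 142914814 to 142954935 (40.1 kb) the scores were 62.08 to 144.41, and on chromosome 3 from 30641135 to 30674629 (33.5 kb) they were 57.96 to 282.33. On chromosome 2 from 154326541 to 154359249 (32.7 kb) they were 65.07 to 147.47, with an Olig2cKO H3K4me3 peak 0.602 kb outside the cluster. None of these 3 held a control H3K27ac, H3K4me3 or Olig2 peak.

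**Figure D3:**
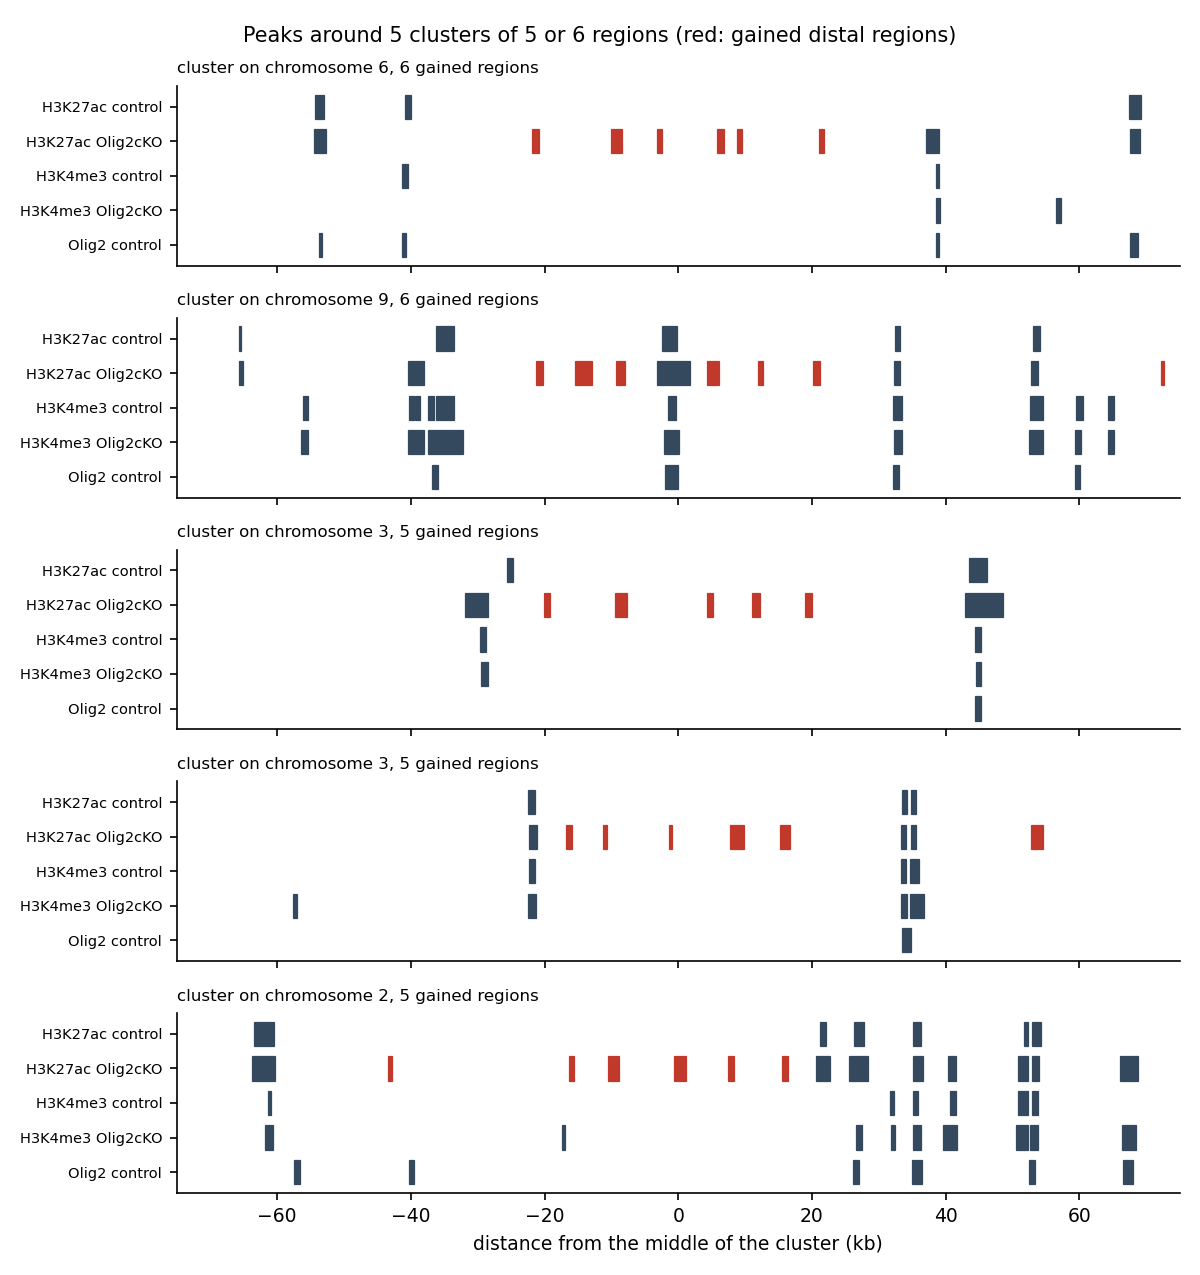
Peaks of the 5 lists around the 2 clusters of 6 and the 3 longest clusters of 5 gained distal regions, by distance from the middle of the cluster (kb). Red boxes are gained regions and dark boxes are all other peaks, and 4 of the 5 clusters hold gained regions alone.

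Many stitched distal domains of Olig2cKO tumours held gained regions. Joining distal peaks by the same distance into domains of 3 or more gave 2126 domains in Olig2cKO and 1408 in control tumours on these chromosomes. Of the Olig2cKO domains, 1661 (78.1%, 76.3 to 79.9) held a gained region and 170 held gained regions alone. Without the gained regions, 703 Olig2cKO domains were formed, and 1424 of the 2126 (67.0%, 64.9 to 69.0) had none left in their place. Without the lost regions, 827 control domains were formed, and 582 of the 1408 (41.3%, 38.7 to 44.0) had none left. Gained regions were 41.5% of distal Olig2cKO peaks and lost regions 21.4% of distal control peaks, so more peaks were taken out in the first case. A domain needs 3 or more peaks, so at 41.5% of peaks a high share of domains with a gained region follows from number alone. Whether gained regions were more frequent in domains than other distal peaks was not tested. In all, 2961 gained regions (20.8%) stood in an Olig2cKO domain and 982 lost regions (16.6%) in a control domain. By the rule no gained region holds a control peak, so that few, 157 (1.10%), lay within a control domain is part of the choice, as it is for the 122 lost regions (2.06%) within an Olig2cKO domain.

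Across the genome, gained regions were spread over 2174 of 2482 windows of 1 Mb, with a median of 6 where any stood. Their number per window went with that of shared distal regions (Spearman rho 0.647 over 2354 windows with a region) and of lost regions (0.471). Windows share the libraries and the density of genes and mappable sequence, so these are descriptions. The fullest windows were on chromosome 13 from 111000001 to 112000000 and on chromosome 17 from 50000001 to 51000000, with 25 gained regions each and 36 and 24 control H3K27ac peaks. On chromosome 5 from 131000001 to 132000000 there were 24 gained regions beside 16 control H3K27ac peaks, 5 control H3K4me3 peaks and 1 lost region. Windows on chromosome 14 from 28000001 and on chromosome 17 from 30000001 held 22 each. The window on chromosome 5 stood out among these 5 by its few H3K4me3 peaks.

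Gained regions were a larger part of distal acetylation where H3K4me3 was sparse. In windows with no control H3K4me3 peak, 155 of the 211 gained, shared and lost distal regions were gained (73.5%, 67.0 to 79.3). The share was 56.0% (53.8 to 58.2) with 1 to 5 such peaks, 49.2% (48.0 to 50.4) with 6 to 15, 43.4% (42.6 to 44.2) with 16 to 30 and 40.7% (39.7 to 41.7) with 31 or more. It fell at each step. Control H3K4me3 is among the lists that the rule used, and no grouping of windows by another list is given here. The fall is therefore a description, and the intervals are no test of it. Lost regions went the other way at first, from 9.0% (5.51 to 13.7) to 16.4% (14.8 to 18.1) and then 17.9 to 19.3%. Most gained regions still lay in the denser windows, with 42.3% in those with 16 to 30 peaks and 25.3% in those with 31 or more.

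The gradient was also present among stronger peaks. Among gained and shared distal regions with scores of 120 or more, gained ones were 66.7% (55.3 to 76.8), 48.0% (44.2 to 51.7), 40.7% (38.7 to 42.7), 32.5% (31.2 to 33.9) and 29.4% (27.8 to 31.1) in the same order of windows. With lists of equal length, gained regions were 63.5% (55.4 to 71.0) of distal regions in windows without control H3K4me3 and 27.8% (26.8 to 28.8) in those with 31 or more, while lost regions were 14.1% and 30.1%. Both of these comparisons and the classes of windows were chosen after the data were seen. With the upper 50% of the Olig2cKO list the gained share was 16.2% in windows with 0 to 5 control H3K4me3 peaks and 7.18% in those with 31 or more, against 57.7% and 40.7% with the whole list. The control lists were kept whole there, so lower gained shares follow from the cut. The part of depth, background or unequal mappability in the gradient was not tested.

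**Figure D4:**
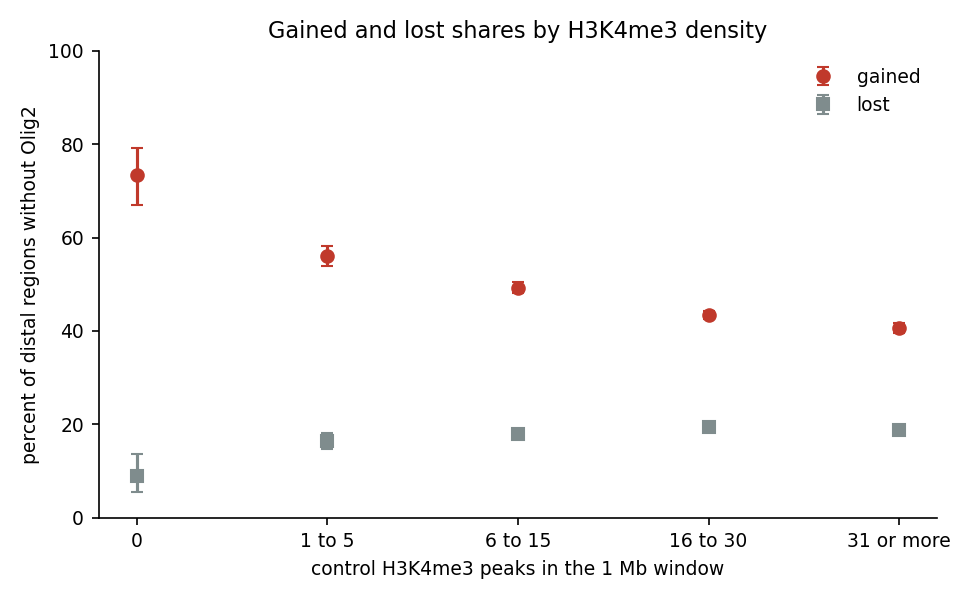
Percent of distal regions without Olig2 that were gained (circles) or lost (squares), with exact 95% intervals, in 1 Mb windows grouped by the number of control H3K4me3 peaks. The gained share falls from 73.5% to 40.7% from left to right, and the lost share rises from 9.0% to 18.9%.

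By chromosome the gained share was even. It ran from 14.2% (12.8 to 15.6) of merged regions on chromosome 19 to 17.7% (16.4 to 19.003) on chromosome 16, with chromosome 15 at 17.6% (16.4 to 18.9) and chromosome 11 at 14.6% (13.7 to 15.5). These 4 of the 19 chromosomes had intervals that left out the overall 15.9%. Chromosomes 11 and 19 had the densest control H3K4me3, at 24.2 and 22.5 peaks per Mb. Regions with H3K4me3 are counted in the merged regions, and their part in these shares was not tested. Among gained and shared distal regions alone, 55.2% were gained. The share was 53.1% (50.6 to 55.6) on chromosome 11, 53.8% (49.98 to 57.6) on 19 and 57.0% (53.9 to 59.997) on 16. These intervals hold the overall value, while those of chromosomes 15 (58.2%, 55.3 to 61.03) and 10 (58.9%, 56.2 to 61.6) lie above it. Chromosome 14, with the sparsest control H3K4me3 at 14.0 peaks per Mb, had a gained share of 15.8% of merged regions, close to 15.9%. Gained regions per lost region lay between 2.25 and 2.73 on all 19, so no single chromosome carried the excess of gained regions. Per Mb, gained regions numbered 4.66 on chromosome 14 to 6.85 on chromosome 11.

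**Figure D5:**
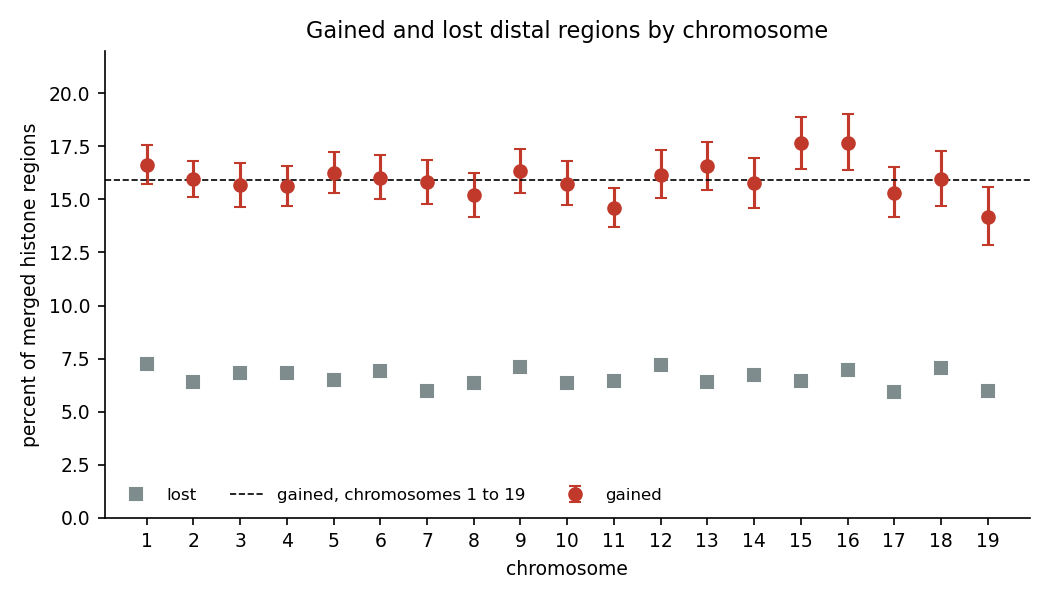
Percent of all merged histone regions on each chromosome that were gained (circles, with exact 95% intervals) or lost (squares), with the overall gained share of 15.9% as a dashed line. Gained shares lie between 14.2% and 17.7% and are above the lost share on every chromosome.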

How the data were processed

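The 5 deposited lists, 1 for each library, give each peak its position and 1 score from the authors' peak calling. CASAVA, Bowtie2 and MACS are named for build mm9, per the submitters' processing notes. Versions, settings and any input library are not given in the sources used here. Whether scores are comparable between libraries is not stated, so they served only inside a list. Peaks beyond an mm9 chromosome end numbered 0, by lengths from GenomeInfoDb 1.38.1.

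Regions, distances (bases between edges), clusters, domains and windows were derived with numpy 2.4.6, pandas 2.3.3 and scipy 1.17.1 under Python 3.11.15. An Olig2 overlap needed 1 bp. Classes and distances were tested on simulated data, and the 89204 merged and 14227 gained regions were checked against bedtools 2.31.1, with equal counts. Shares carry Clopper-Pearson intervals, medians exact order-statistic intervals. Figures used matplotlib 3.10.9.

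The members, comparison classes and alternatives were chosen with earlier results of these data known. Named regions were the 10 highest-scoring, 5 widest and 5 farthest from control H3K27ac, the 5 clusters with most regions (ties by length), the 5 fullest windows, and the chromosomes with the highest and lowest share. Chromosomes 10, 11, 14 and 15 and the classes of score and width were chosen after their values were seen. A planned set of the regions with most peaks was not used, since each region held 1 peak. The scale of the score is not stated in the sources used here. The planned gene lists were not used, because no mm9 annotation was used here. No sequence is printed for the same reason. The genotypes are not reported here in full.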

Additional observations from a re-analysis of the deposited data

How the results depend on the processing

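The number of gained regions, 14227, stayed within 1.5 times with peaks up to 1 kb apart joined (12570), with an Olig2 peak within 1 kb counted as overlap (13965) and with chromosome X added (14450). With the upper 50% of the Olig2cKO H3K27ac list it was 1802, 2.37% of regions, with a median width of 1617 bp, a median score of 212.3, medians of 13383 bases to control H3K27ac and 19575.5 bases to Olig2, 40.6% within 10 kb of control H3K27ac, 0% in clusters, 5.11% with a gained nearest neighbour, 2.56% of regions on chromosome 16 and at most 8 in a window. With lists of equal length it was 8322, 10.3% of regions, and these values were 1252 bp, 116.5, 11704 bases, no move for Olig2, 44.8%, 2.44%, 17.9%, 11.2% and 16, with 89.0% in the lower 50% of the list. With regions of at least 1 kb it was 7267, 11.02% of regions, with 1487 bp, a score of 111.3, 8546 bases, 14996 bases, 55.4%, 3.74%, 17.0% and 11.9%, and 76.5% in the lower 50%. With peaks up to 1 kb apart joined, the share of regions was 15.6%, the width 1075 bp, the score 85.7, the share in the lower 50% 86.3%, the distance to control H3K27ac 11829.5 bases with 44.0% within 10 kb, the clustered share 3.61% and the share with a gained neighbour 21.2%. Counting Olig2 within 1 kb gave 15.7% of regions and 18375 bases to Olig2. The clustered share was 0.583% at a clustering distance of 5 kb and 16.1% at 25 kb. Of 73 values under these alternatives, 28 stayed within the counting interval, or within 1.5 times for counts. Of 12 further values, for the gained share in windows with 0 to 5 and with 31 or more control H3K4me3 peaks, 5 did so. The largest moves were with the upper 50% of the list, to 16.2% from 57.7% and to 7.18% from 40.7%. That setting cut the Olig2cKO H3K27ac list alone and kept the control lists whole, so fewer gained regions follow from it. The causes of the moves were not tested beyond the fewer peaks that 3 of the alternatives keep. Alternatives for neighbours, chromosomes and windows were added after the data were seen. No paired analysis was possible because each group has 1 library. The unknown depth of each library limits every count.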

Other observations

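In 49 of the 2174 windows of 1 Mb with a gained distal region, gained distal regions stood where no control H3K27ac peak was listed, 93 regions in all, while 8 windows held lost distal regions and no Olig2cKO H3K27ac peak. The Olig2cKO list is longer (69365 peaks against 56600) and there are 2.41 gained regions for each lost one, so these counts do not compare the genotypes on equal terms. No merged region of any kind lay within 100 kb of 197 gained regions (1.38%, 1.20 to 1.59), against 64 shared (0.554%, 0.427 to 0.707) and 66 lost distal regions (1.12%, 0.864 to 1.42). These isolated gained regions had scores with a median of 90.9 and a highest value of 374.1, and their median width was 715 bp, so they were narrower than gained regions as a whole and not weaker.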
